A study of Mus musculus with 8 samples.

Results

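Semaphorins, plexins and neuropilins were read as a family of 31 genes among the 32585 genes or unnamed transcripts probed on the arrays: 20 semaphorins, 9 plexins and 2 neuropilins. The members are all genes whose RefSeq symbol is a semaphorin, a plexin, Nrp1 or Nrp2, and they were carried by 39 of the 39429 probes. Testing required a Cy5 signal well above background on 4 or more of the 8 arrays, which left 30 members. Sema3d was not tested, since its probe was well above background on 0 arrays labelled GFP and on 1 array labelled Nr4a1.

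The RNA came from dissociated mouse hippocampal neurons in culture, grown in multi-well plates. The cultures were transduced on day 10 with a lentivirus and harvested 6 days later, so both groups carried a virus. It encoded GFP in the control group (4 arrays) and Flag-tagged Nr4a1, an orphan nuclear receptor induced by neuronal activity, in the other (4 arrays). The labels used here name no mouse strain, age of the animals or promoter of the transgene. Each array carried culture RNA in Cy5 and a commercial mouse reference RNA in Cy3. The replicate numbers pair 1 array of each group, and all results below rest on n = 4 arrays per group.

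Semaphorins are secreted or membrane-bound guidance cues that steer growing axons and dendrites and, in mature neurons, limit or promote synapses. Plexins are their signalling receptors, and most secreted semaphorins of class 3 reach them through a neuropilin, the ligand-binding partner in the receptor complex. In the hippocampus this system is known for guiding mossy fibres and for setting spine number on pyramidal cell dendrites, the phenotype named in the title of the series.

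Levels are given as log2 ratios of culture RNA to reference RNA, so a level of 0 means equal signal in both, and one gene's ratio cannot be set against another's. Differences are the Nr4a1-labelled minus the GFP-labelled level within pairs, with the standard error from limma. A gene was counted as higher or lower where limma's Benjamini-Hochberg adjusted p over all 21113 tested features was under 0.05. The background correction used here shrinks the folds of dim probes. The labels do not say that the replicates of a group were separate cultures, so the p-values rest on a spread between samples that may be technical only. In bulk RNA, fewer cells of a type cannot be told apart from less transcript per cell.

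The delivered gene itself was read first. The Nr4a1 probe stood at -2.06, -2.12, -1.90 and -2.49 on the GFP-labelled arrays and at -1.32, -2.49, -1.20 and -2.37 on the Nr4a1-labelled arrays. It was higher in 3 of 4 pairs, the groups overlapped, and the difference of 0.30 ± 0.15 was not past the threshold (limma adjusted p = 0.193). The probe thus did not separate the groups, whose names below are those of the labels. The sources used here do not say whether it lies within the delivered sequence.

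Of the 30 members tested, 4 were higher and 11 were lower on the arrays labelled Nr4a1. Of all features, 12.9% were higher, 11.5% lower and 24.4% changed in either direction, against 13.3% and 36.7% of the members in each direction and 15 of 30 in either. The median difference over the members was -0.03, beside -0.00349 over all features, and the median size of a difference was 0.24, beside 0.11. All 15 members past the threshold had the same sign in all 4 pairs, and in all 18 of the 30 tested members did. The calls come from these same pairs, so the shared sign is not separate support for them. For 9 members the groups did not overlap, 3 above and 6 below, against 24.4% of all features (12.7% above and 11.7% below).

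Higher were the secreted Sema3e and Sema3f, the transmembrane Sema5b and the receptor Plxnd1. Lower were both neuropilins, Plxna3, Plxnc1, Sema3c, Sema4a, Sema4f, Sema4g, Sema6a, Sema6c and Sema7a. The changes were small, from 1.17-fold for Sema6c to 1.65-fold for Plxnc1. Of 19 ligands, 3 were higher (15.8%) and 7 lower (36.8%), and of 11 receptors, 1 was higher (9.09%) and 4 lower (36.4%). Of all features, 12.9% were higher and 11.5% lower, so the higher shares were near that of all features.

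Slide followed group, since slide 1 held the GFP-labelled arrays alone, slide 2 held Nr4a1-labelled replicates 1 to 3, and slide 3 held replicate 4. An effect of slide therefore cannot be told apart from the group difference for any call, with or without a slide block. With slide as a random block in limma, 0 members passed (3 at an unadjusted p under 0.05, 1 higher and 2 lower), and 8 features in all were higher and 4 lower. With spots of non-uniform local background kept in the background correction, 0 members were higher and 1 lower, beside 128 and 97 of all features. At an unadjusted p under 0.05 in limma, 2 members were then higher and 10 lower. Leaving out replicate 1 gave 3 higher and 7 lower members, beside 1767 and 1624 of all features. Leaving out replicate 4 gave 2 higher and 9 lower, beside 1992 and 1907.

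**Figure D1:**
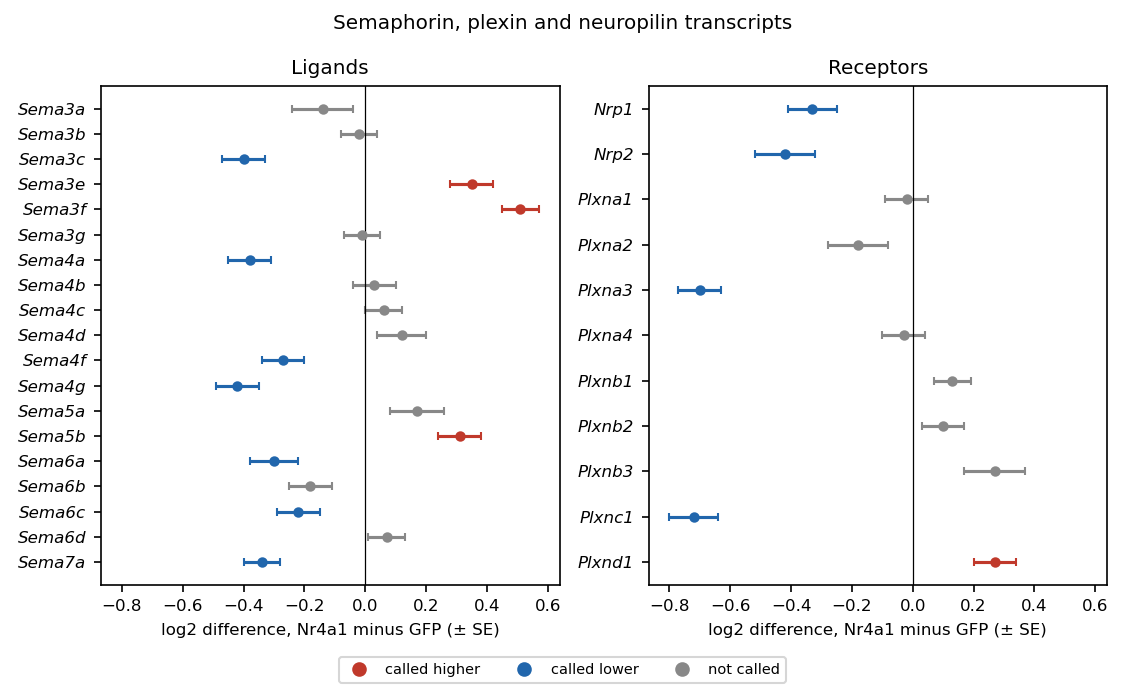
Differences (log2, Nr4a1-labelled minus GFP-labelled) of the 30 tested genes, ligands on the left and receptors on the right; points are limma estimates from 4 pairs, lines are 1 standard error on either side, and colour marks the genes past an adjusted p of 0.05. Plxnc1 and Plxna3 lie farthest to the left and Sema3f farthest to the right.

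To show the sequence next to the measured transcripts, the 250 bases before the start are given for 2 class 3 ligands that changed in opposite directions and for Nrp2, a receptor of this class. They are from RefSeq (GRCm38.p6), 5′ to 3′, with CpG dinucleotides in capitals. All 3 lie on the plus strand, Sema3c at chr5:17574566-17574815, Sema3e at chr5:14025026-14025275 and Nrp2 at chr1:62703067-62703316.
Sema3c: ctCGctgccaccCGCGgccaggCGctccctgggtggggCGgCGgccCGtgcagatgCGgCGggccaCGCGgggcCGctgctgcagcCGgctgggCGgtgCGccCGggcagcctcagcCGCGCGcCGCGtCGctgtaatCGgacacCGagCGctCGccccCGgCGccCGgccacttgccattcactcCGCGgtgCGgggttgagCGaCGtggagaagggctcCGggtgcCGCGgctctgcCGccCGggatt
Sema3e: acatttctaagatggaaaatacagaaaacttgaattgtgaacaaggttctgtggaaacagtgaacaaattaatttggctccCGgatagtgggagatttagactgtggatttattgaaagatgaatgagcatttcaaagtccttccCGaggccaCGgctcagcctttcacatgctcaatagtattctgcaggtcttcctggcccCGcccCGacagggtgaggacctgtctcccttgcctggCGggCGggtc
Nrp2: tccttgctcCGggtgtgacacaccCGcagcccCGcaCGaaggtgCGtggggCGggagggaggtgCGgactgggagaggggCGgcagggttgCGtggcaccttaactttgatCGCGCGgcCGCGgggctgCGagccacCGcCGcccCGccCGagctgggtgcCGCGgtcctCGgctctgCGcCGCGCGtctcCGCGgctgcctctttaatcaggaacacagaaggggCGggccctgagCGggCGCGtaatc
The windows of the lower transcripts Sema3c and Nrp2 held 39 and 32 CpG and were 78.4% and 72.4% G or C. The window of the higher transcript Sema3e held 7 CpG and was 48.0% G or C, near the medians of 6.00 CpG and 52.4% over all RefSeq promoters of the table. Among other lower transcripts, the windows of Sema4a and Sema4f held only 2 and 4 CpG.

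Promoter entries, which run from 250 bases before to 50 after a start, were found for 26 of the 31 members, with 37 starts in all. Plxna1, Plxna4, Sema3b, Sema3f and Sema6a had none. The letters AAAGGTCA, the element that NR4A receptors bind as monomers, were searched on both strands and stood in 0 of the 37 member promoters and in 1.34% of the 32851 promoters of the table. The shorter AGGTCA, which lies within that element, stood in 7 of the 37 (18.9%) and in 14.0% of all promoters. Its 7 genes were Nrp1, Plxnb2, Plxnd1, Sema4b, Sema4d, Sema5a and Sema6b, of which Nrp1 was lower and Plxnd1 higher. A match describes the letters of the window and is not evidence of binding.

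Among the secreted ligands of class 3, Sema3f rose most. It signals through Nrp2 and Plxna3 and is known to repel hippocampal axons and to restrain spine formation. Sema3f read -2.44, -2.44, -2.42 and -2.35 on the GFP-labelled arrays and -1.89, -1.90, -2.04 and -1.77 on the Nr4a1-labelled arrays. Every Nr4a1-labelled array lay above every GFP-labelled one. The difference was 0.51 ± 0.06, or 1.42-fold (limma adjusted p = 0.000275).

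Sema3e, which binds Plxnd1 without needing a neuropilin, rose as well. Its levels were 1.75, 1.59, 1.70 and 1.54 with GFP and 2.15, 1.84, 1.95 and 2.06 with Nr4a1, with no overlap between the groups. The difference was 0.35 ± 0.07, or 1.28-fold (limma adjusted p = 0.00398).

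Sema3c, which attracts cortical axons through neuropilins, moved the other way. It stood at 0.10, 0.35, 0.22 and 0.27 in the GFP group and at -0.11, -0.09, -0.38 and -0.09 in the Nr4a1 group. Again the groups did not overlap, and replicate 3 was the lowest. The difference was -0.40 ± 0.07, a 1.32-fold lower level (limma adjusted p = 0.00297), and a dimmer probe of the same gene gave -0.27 ± 0.08 (adjusted p = 0.0287).

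The remaining tested class 3 ligands did not pass. Sema3a, the classical growth cone repellent, had a difference of -0.14 (95% interval -0.37 to 0.08), with replicate 4 higher and the others lower, and without replicate 4 it was -0.28 and passed (limma adjusted p = 0.0389). Intervals were narrower for Sema3b (-0.16 to 0.12) and for Sema3g (-0.14 to 0.11), whose probe was well above background on 3 arrays of each group. Sema3d, untested for its low signal, read 0.10 to 0.23 with GFP and 0.01 to 0.14 with Nr4a1.

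The class 4 semaphorins are transmembrane proteins. None of the 6 rose and 3 fell (Sema4a, Sema4f and Sema4g), beside 12.9% and 11.5% of all features. In limma no member was higher even at an unadjusted p under 0.05. A direction of the class as a whole was not tested. Sema4a, better known from immune and endothelial cells, read 1.70, 1.74, 1.72 and 1.58 with GFP and 1.44, 1.18, 1.32 and 1.3 with Nr4a1. The groups did not overlap and the difference was -0.38 ± 0.07, or 1.3-fold lower (limma adjusted p = 0.00304). In the Cy5 channel alone, quantile normalised without the reference, the same probe gave -0.08 and did not pass.

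Sema4f, whose cytoplasmic tail can bind the postsynaptic scaffold PSD-95, gave 3.15, 3.19, 3.24 and 3.03 in the GFP group and 2.89, 2.88, 2.79 and 2.95 in the Nr4a1 group. The nearest arrays of the groups were 3.03 and 2.95, so the groups were apart by little. The difference was -0.27 ± 0.07 (limma adjusted p = 0.0185). It did not pass without replicate 1, 2 or 3, each left out in turn, and in the Cy5 channel alone it was -0.80 (adjusted p = 0.000104).

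Sema4g fell by 0.42 ± 0.07 on the log2 scale (limma adjusted p = 0.00231). Its levels were 1.77, 1.62, 1.64 and 1.33 with GFP and 1.1, 1.27, 1.34 and 0.96 with Nr4a1, where GFP replicate 4 fell just below Nr4a1 replicate 3. Within pairs every difference was negative, from -0.67 to -0.29. The other 3 class 4 genes had intervals around 0: Sema4b from -0.14 to 0.20, Sema4c, a ligand of Plxnb2, from -0.06 to 0.19, and Sema4d, the ligand of Plxnb1, from -0.06 to 0.30. In the Cy5 channel alone Sema4c passed as higher, at 0.22 (limma adjusted p = 0.0261).

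The class 5 semaphorins carry thrombospondin repeats beside the sema domain. Sema5b, which is known to remove synapses in cultured hippocampal neurons, rose. It read 2.76, 2.70, 2.93 and 2.57 with GFP and 3.12, 3.03, 3.02 and 3.02 with Nr4a1, without overlap. The difference was 0.31 ± 0.07, or 1.24-fold (limma adjusted p = 0.0105), but it was -0.16 when spots with a non-uniform local background were kept in the background correction. A dimmer Sema5b probe gave 0.10 ± 0.08 (adjusted p = 0.387), and the brighter one did not pass without replicate 4. Sema5a, a ligand of Plxnb3, had a difference of 0.17 (95% interval -0.02 to 0.36). It passed as higher without replicate 3, at 0.29 (limma adjusted p = 0.0184), and under median centring, at 0.28 (adjusted p = 0.0260).

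Class 6 semaphorins are transmembrane cues that bind A-type plexins directly. Sema6a, a ligand of Plxna2 and Plxna4, read 2.13, 2.05, 2.19 and 2.06 with GFP and 2.06, 1.85, 1.87 and 1.47 with Nr4a1. Nr4a1 replicate 1 equalled GFP replicate 4, and replicate 4 was the lowest. The difference was -0.30 ± 0.08 (limma adjusted p = 0.0269) and did not pass without the pair block (adjusted p = 0.0633) or without replicate 3 or 4.

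Sema6c was the smallest change past the threshold. Its levels were 0.89, 0.89, 0.72 and 0.63 with GFP against 0.48, 0.66, 0.60 and 0.51 with Nr4a1, overlapping at 1 array of each group. The difference was -0.22 ± 0.07 (limma adjusted p = 0.0376), and 4 of the 16 alternative settings that tested the gene also called it, 1 of the 4 that leave out a pair among them. Sema6b had -0.18 (95% interval -0.35 to -0.01, adjusted p = 0.113) and was lower in all 4 pairs without passing. In the Cy5 channel alone it passed, at -0.26 (limma adjusted p = 0.0208). Sema6d, a ligand of Plxna1, had 0.07 (-0.07 to 0.21) on its brighter probe and -0.22 (-0.41 to -0.02) on a dimmer one, and neither passed.

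Sema7a is the one semaphorin held in the membrane by a lipid anchor, and it signals through Plxnc1 and integrins. Its GFP levels were 1.69, 1.65, 1.67 and 1.63 and its Nr4a1 levels 1.36, 1.17, 1.34 and 1.39. The GFP arrays lay within 0.06 of each other and all Nr4a1 arrays lay below them. The difference was -0.34 ± 0.06, or 1.27-fold lower (limma adjusted p = 0.00318).

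**Figure D2:**
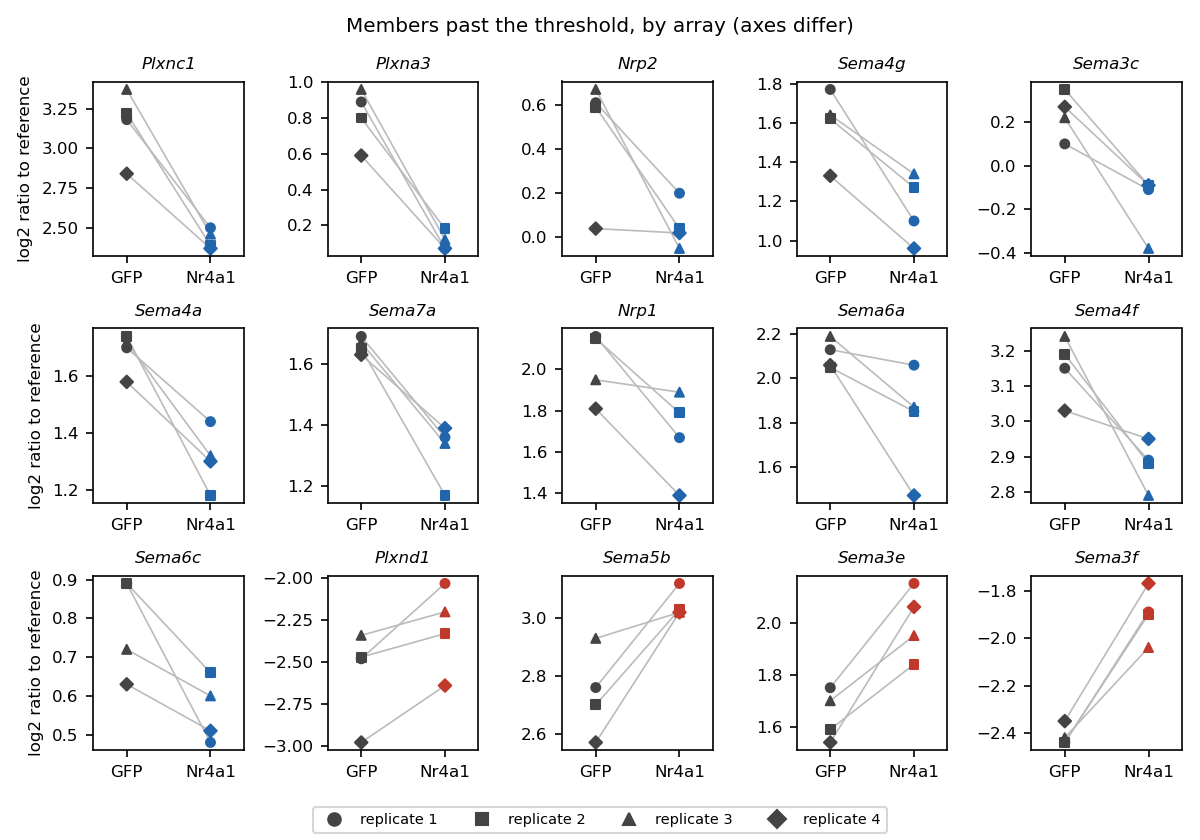
Level on each array (log2 ratio of culture RNA to reference RNA) of the genes past the threshold, with GFP-labelled and Nr4a1-labelled arrays side by side and lines joining the arrays of a pair. Sema3f, Sema3e and Sema5b lie wholly above the GFP arrays, and Plxna3, Plxnc1, Sema3c, Sema4a, Sema4f and Sema7a wholly below them.

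On the receptor side, both neuropilins fell. Nrp1, the binding partner for Sema3a, read 2.16, 2.15, 1.95 and 1.81 in the GFP group and 1.67, 1.79, 1.89 and 1.39 in the Nr4a1 group. The groups overlapped, since GFP replicate 4 lay below Nr4a1 replicate 3. The difference was -0.33 ± 0.08, or 1.26-fold lower (limma adjusted p = 0.0111), and it did not pass without replicate 1 or 4.

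Nrp2, the binding partner for Sema3f, gave 0.61, 0.59, 0.67 and 0.04 with GFP and 0.20, 0.04, -0.05 and 0.02 with Nr4a1. GFP replicate 4 lay far below the other GFP arrays and among the Nr4a1 arrays, so the groups overlapped. The difference was -0.42 ± 0.10, or 1.34-fold lower (limma adjusted p = 0.0124). It did not pass without replicate 1. A dimmer Nrp2 probe, which differed by -0.32 in replicate 4, gave -0.26 ± 0.07 (adjusted p = 0.0250).

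Of the 9 plexins, Plxnc1 and Plxna3 fell most among all members. Plxnc1, the receptor for Sema7a, read 3.18, 3.22, 3.37 and 2.84 with GFP and 2.50, 2.39, 2.46 and 2.37 with Nr4a1. No array of one group reached the other. The difference was -0.72 ± 0.08, or 1.65-fold lower (limma adjusted p = 0.000134). Its dimmer probe was also lower in all 4 pairs, at -0.22 ± 0.07, without passing (adjusted p = 0.0574).

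Plxna3, the plexin that pairs with Nrp2 in Sema3f reception, read 0.89, 0.80, 0.96 and 0.59 with GFP and 0.07, 0.18, 0.12 and 0.07 with Nr4a1. The lowest GFP array was 0.59 and the highest Nr4a1 array 0.18. The difference was -0.70 ± 0.07, or 1.62-fold lower (limma adjusted p = 9.69e-05). It passed in 16 of 17 alternative settings, the slide block being the exception, and was the most stable call of the family by that count. The settings overlap, and those that changed the filter or averaged probes left Plxna3 at -0.70.

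The other A-type plexins did not pass. Plxna1 had -0.02 (95% interval -0.18 to 0.14) and Plxna4 -0.03 (-0.19 to 0.13). Plxna2, a Sema6a receptor, had -0.18 (-0.40 to 0.05), where replicate 3 alone gave -0.64 and the other pairs lay between -0.08 and 0.02. A test of whether Plxna3 differed from these relatives was not run.

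Plxnd1, the Sema3e receptor, was the one receptor that rose. It read -2.48, -2.47, -2.34 and -2.98 with GFP and -2.03, -2.33, -2.20 and -2.64 with Nr4a1, with overlapping groups and every pair higher. The difference was 0.27 ± 0.07 (limma adjusted p = 0.0194), but without the pair block the adjusted p was 0.218. It did not pass without replicate 1 or 4, and a dimmer probe gave 0.06 ± 0.06 (adjusted p = 0.534). The B-type plexins, receptors of class 4 and class 5 ligands, did not pass. Plxnb1 had 0.13 (95% interval -0.01 to 0.27) and Plxnb2 0.10 (-0.05 to 0.25). Plxnb3 had 0.27 (0.04 to 0.49) from a dim probe that was well above background on 1 GFP-labelled array and on 4 Nr4a1-labelled arrays, with replicate 2 at 0.19 and the other Nr4a1 arrays at -0.56 to -0.48. Without replicate 2 Plxnb3 was 0.12, and under median centring it was 0.31 and passed (limma adjusted p = 0.0210).

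Set beside their receptors, the ligands fell into both like and unlike combinations. Within the Sema3f set the ligand rose by 0.37 to 0.57 in each pair, while Plxna3 differed by -0.85 to -0.52 and Nrp2 by -0.72 to -0.02 in the same pairs. In the Sema7a set ligand and receptor fell together, with pair differences of -0.48 to -0.24 for Sema7a and -0.91 to -0.47 for Plxnc1. In the Sema3e set both rose, Sema3e by 0.24 to 0.51 and Plxnd1 by 0.14 to 0.45.

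Sema3c fell together with both neuropilins, while Plxnd1, which also serves Sema3c, rose. For Sema3a, Nrp1 was lower, while the ligand, Plxna1 and Plxna4 did not pass. Sema6a was lower, while Plxna2 and Plxna4 did not pass. In the sets Sema4d with Plxnb1, Sema4c with Plxnb2, Sema5a with Plxnb3 and Sema6d with Plxna1, 0 of the 8 genes passed in limma, and 0 of them other than Plxnb3 had an unadjusted p under 0.05. These combinations are descriptive, and no test of a ligand against its receptor was made.

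**Figure D3:**
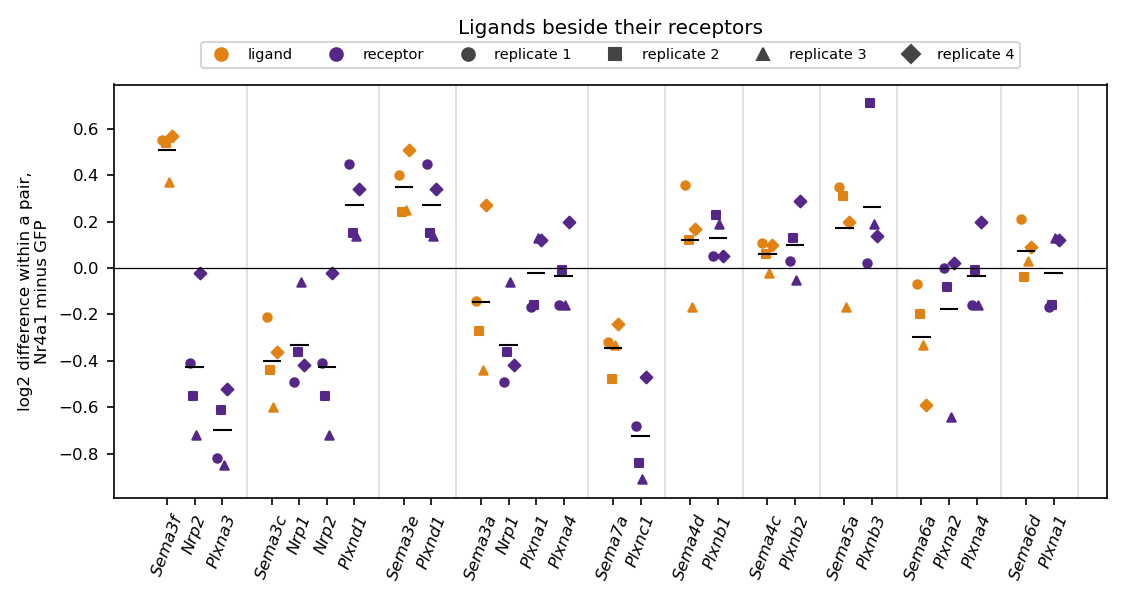
Differences within each pair (log2, Nr4a1-labelled minus GFP-labelled) for ligands and the receptors listed beside them; points are the 4 pairs and the bar is their mean. In the Sema3f set the ligand lies above 0 and Plxna3 below it in all pairs, whereas Sema7a and Plxnc1 both lie below.

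The proteins that act with or below these receptors were read from a list of 60 genes, of which 57 were tested (Itga1, Timd2 and Mical3 were not). In limma, 7 were higher and 17 lower, or 42.1% against 24.4% of all features. Their median difference was -0.06. Median centring in place of loess turned the balance to 11 higher and 8 lower. Without replicate 1 the partner counts were 3 higher and 10 lower, beside 1767 and 1624 of all features. Without replicate 2 they were also 3 and 10, beside 1931 and 1633. As with the members, 0 passed with slide as a random block (4 at an unadjusted p under 0.05, 2 in each direction).

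Among 10 co-receptors tested, 0 rose and 3 fell, a share near the 24.4% of all features that changed. Cntn2, an axonal adhesion molecule, differed by -0.55 ± 0.07 (limma adjusted p = 0.000539), from 0.81 to 0.99 on Nr4a1-labelled arrays against 1.1 to 1.66 with GFP. L1cam, the partner of Nrp1 in Sema3a responses, differed by -0.31 ± 0.10 (adjusted p = 0.0442), was -0.17 without replicate 1 and passed in 8 of 17 alternative settings. Mst1r, a receptor tyrosine kinase that can associate with B-type plexins, differed by -0.25 ± 0.06 (adjusted p = 0.0103).

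Of the 20 GTPases and their regulators, 4 rose and 4 fell, beside 12.9% and 11.5% of all features. Arhgef11, the RhoA exchange factor that binds B-type plexins, rose by 0.71 ± 0.08 (limma adjusted p = 0.000171), with levels of 0.72 to 1.04 with GFP and 1.47 to 1.76 with Nr4a1. Farp2, the Rac exchange factor released from A-type plexins on Sema3a binding, rose by 0.56 ± 0.07 (adjusted p = 0.000311). Rap1b, a GTPase on which the plexin GAP domain acts, rose by 0.26 ± 0.07 (adjusted p = 0.0237). Rnd2, a small GTPase of the group that binds plexins, fell from 3.05 to 3.27 with GFP to 2.30 to 2.62 with Nr4a1, a difference of -0.69 ± 0.08 (adjusted p = 0.000287). Rasa1, a Ras GTPase-activating protein, and Rras2, an R-Ras relative, differed by -0.37 ± 0.07 and -0.23 ± 0.06 (adjusted p = 0.00410 and 0.0262). Rap1b and Rras2 passed in 9 of 17 alternative settings each.

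Of the 23 effectors tested, 2 rose and 10 fell, beside 12.9% and 11.5% of all features. The 10 include the 5 CRMP genes described below. Limk1, the kinase that inactivates cofilin, differed by -0.57 ± 0.07 (limma adjusted p = 0.000273), with 1.68 to 1.89 in the GFP group and 1.2 to 1.32 in the Nr4a1 group. Pak1, which activates Limk1, differed by -0.40 ± 0.07 (adjusted p = 0.00274). Mical1, the oxidase that acts on actin downstream of A-type plexins, rose by 0.35 ± 0.06 (adjusted p = 0.00231), and Pak2 by 0.21 ± 0.06 (adjusted p = 0.0240), the latter in 8 of 17 alternative settings.

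All 5 genes of the CRMP family on that list, the microtubule-binding mediators of semaphorin responses, were lower, beside 11.5% of all features, although Dpysl4 turned to 0.05 in the Cy5 channel alone. Dpysl3 differed by -0.48 ± 0.06 (limma adjusted p = 0.000288), with 3.22 to 3.60 with GFP and 2.77 to 3.10 with Nr4a1. The others, named after their values were seen, were Crmp1 (-0.35 ± 0.07), Dpysl5 (-0.33 ± 0.06), Dpysl4 (-0.23 ± 0.07) and Dpysl2 (-0.20 ± 0.06). The last of these was called in 4 of 17 alternative settings and Dpysl4 in 5. Of the 4 proteases that cleave semaphorins or their receptors, 1 passed, a share near that of all features. It was Adam10, which differed by 0.24 ± 0.07 (adjusted p = 0.0390) and passed in 8 of 17 alternative settings.

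**Figure D4:**
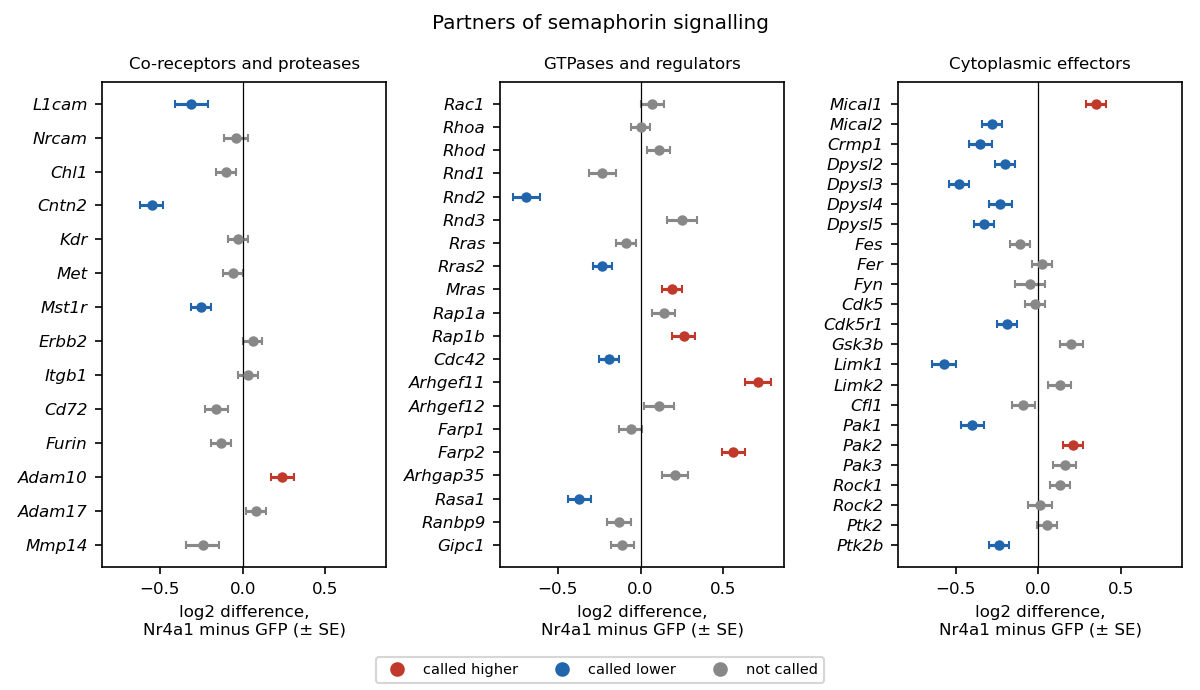
Differences (log2, Nr4a1-labelled minus GFP-labelled) of the 57 tested partner genes by sublist; points are limma estimates, lines are standard errors, and colour marks the genes past an adjusted p of 0.05. Arhgef11 and Farp2 lie farthest to the right, and Rnd2, Limk1 and Cntn2 farthest to the left.

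Markers of cell types were read to place these values. Over 10 neuron markers, among them Stmn2 and Tubb3, the mean log2 ratio was 4.70 to 4.83 with GFP and 4.63 to 4.81 with Nr4a1. On average these transcripts thus stood above the reference RNA in both groups, which does not give the share of neurons in the cultures. Of the 10, 1 was higher and 1 lower. Excitatory markers such as Neurod2 and Tbr1 stood at 3.98 to 4.13 and 4.02 to 4.13, and inhibitory markers such as Slc32a1 and Gad1 at 3.46 to 3.67 and 3.39 to 3.53. Single subtype markers, named after their values were seen, moved with the group. Of 7 excitatory markers Slc17a6 was higher (0.59 ± 0.07) and Neurod6 lower (-0.39 ± 0.07), and of 8 inhibitory markers Calb2 (-0.92 ± 0.10) and Sst (-0.23 ± 0.06) were lower. Glial markers were present as well. Astrocyte markers such as Aldoc and Slc1a3 stood at 3.48 to 3.60 and 3.59 to 3.75, with 3 of 10 higher and 0 lower.

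Among markers of the oligodendrocyte lineage, most moved with the group, though Olig1 did not pass (-0.17 ± 0.08, limma adjusted p = 0.158). Of 12 genes 11 were tested, 6 were higher and 2, the myelin genes Mbp and Mag, lower, and the list mean was 0.84 to 1.00 with GFP and 1.2 to 1.24 with Nr4a1. Semaphorins and plexins are also made by glia, and the part of these cells and of the neuronal subtypes in the family's differences was not tested. Microglial markers (Itgam, Csf1r) stood at -1.84 to -1.76 and -1.98 to -1.86, with Cx3cr1, P2ry12 and C1qa too dim to test. Of the 7 tested, Csf1r was lower (-0.75 ± 0.07, limma adjusted p = 8.04e-05) and the others did not pass. Fibroblast markers (Col1a2, Col6a1) stood at -3.85 to -3.71 and -4.00 to -3.90, with Lum (-1.0 ± 0.08) and Dcn (-0.59 ± 0.07) lower among 9. Of 8 endothelial markers 3 were tested, among them Pecam1 and Flt1, of which Flt1 was higher (0.58 ± 0.06), and the list mean was -1.5 to -1.33 and -1.30 to -1.15.

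Depth on an array is its signal over background. Before background correction, the median Cy5 signal of an array was 137 to 194 and the median Cy3 signal 141.5 to 154. The median Cy5 background was 29.5 to 30, and 60.9% to 69.2% of spots were well above background in Cy5. The number of arrays limits the precision.

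The calls differed in how well they held over 17 other ways of processing the arrays. Plxna3 passed in 16, and Plxnc1, Sema3c, Sema3f and Sema7a in 15 each, all 4 lost with the slide block and with all spots kept. Sema3e, Sema4a and Sema4g passed in 14, Nrp2 in 13, Nrp1 and Sema5b in 12, Sema6a in 10, and Plxnd1 and Sema4f in 9. Sema6c held least, in 4 of the 16 settings that tested it. Of the 15 called members, 14 kept their sign in all settings that tested them, Sema5b being the exception, and 8 passed in all 4 fits that leave out a pair. Sizes moved by over 1.5 times in some settings. With all spots kept, Nrp1 was -0.55, Sema6a -0.56, Sema4f -0.49 and Sema3e 0.15, and Sema5b turned to -0.16. With scaling between arrays, Sema4f was -0.47, Plxnd1 0.44, Sema3e 0.23 and Sema5b 0.13. In Cy5 alone, Sema4f was -0.80, Sema4a -0.08 and Sema7a -0.54. Other such values included -0.27 for Nrp2 under median centring and 0.15 for Sema5b in Agilent's ratio. As the mean of their probes, Plxnc1 was -0.47 and Plxnd1 0.16.

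**Figure D5:**
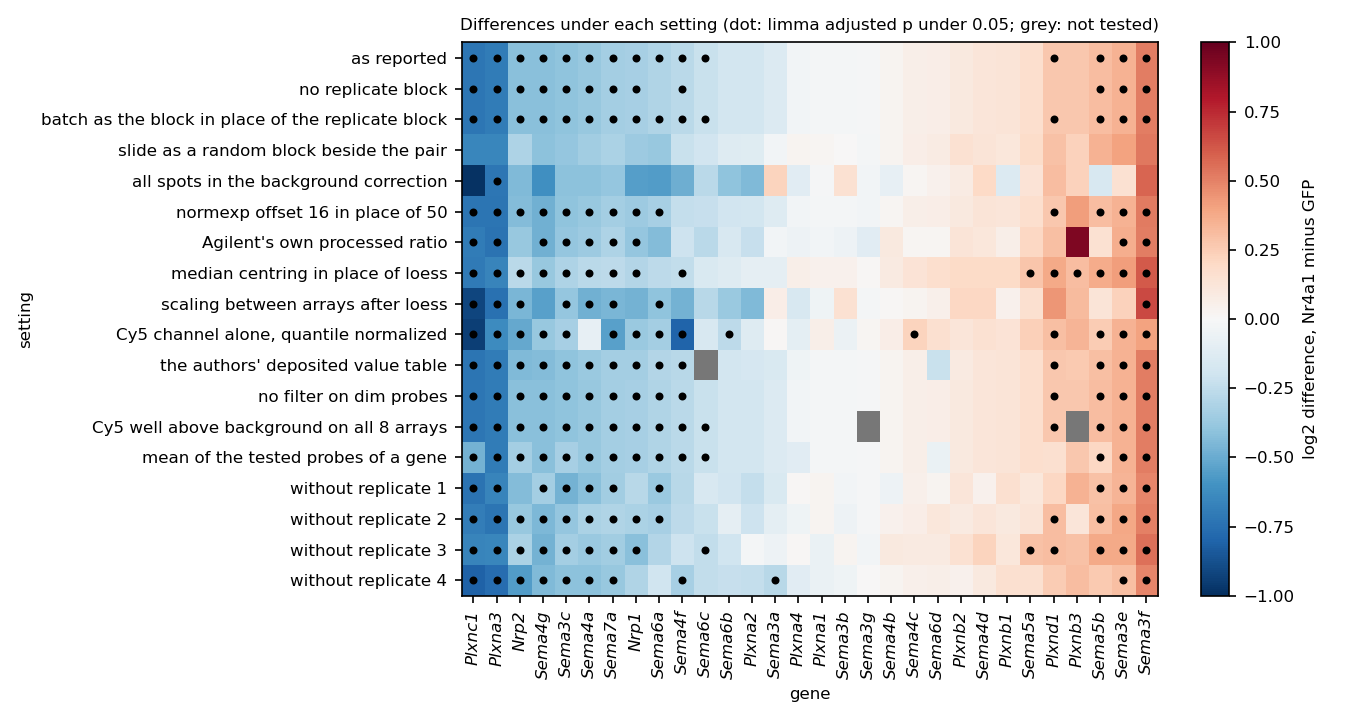
Difference of each tested member (columns, ordered by the reported value) under the reported and 17 alternative settings (lines); colour is the log2 difference, Nr4a1-labelled minus GFP-labelled, a dot marks a limma adjusted p under 0.05, and grey marks genes not tested in a setting. Plxna3, Plxnc1, Sema3c, Sema3f and Sema7a carry dots in 15 or 16 of the alternatives, and the slide block carries 0.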

How the data were processed

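Per the file headers, Agilent Feature Extraction 11.0.1.1 wrote the scanner files, which hold median signal and local background intensity for each spot, with a log10 ratio of Cy5 over Cy3. The submitters' processing notes name limma, and further settings are not given in the sources used here. The deposited value table holds log2 ratios of 24275 probes. Its scale, centring and direction are unstated, and its columns followed the scanner log2 ratios of Cy5 over Cy3 (correlation 0.998 to 1, slope 0.992 to 1.01, column medians 0.0240 to 0.0312).

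Control spots, outliers and spots with a non-uniform local background (37 on Nr4a1-labelled replicate 2, up to 8509 in Cy5) were left out. Background was corrected by normexp with an offset of 50, ratios were normalised by loess within arrays, and spots were averaged by probe. Of 39429 probes, 26581 were named through RefSeq (GRCm38.p6) and 12848 kept their identifier. The brightest probe stood for a gene, with the others given beside it. Each group needed at least 3 values.

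Groups were compared with limma 3.58.1 (R 4.3.3, two-sided) with the labelled pair as a block, and p-values were adjusted by Benjamini-Hochberg across the 21113 features. Values for the dimmer probes of a gene come from a separate fit to every tested probe, adjusted across those probes. Deviations within pairs correlated at -0.105, 0.276, -0.017 and 0.425 for replicates 1 to 4, and the block rests on the pair tag of the labels. The steps were tested on simulated data. Members and lists were chosen with earlier results of these data known. Named were all members, Nr4a1, the 3 called partners of smallest p per direction and sublist, and the 2 brightest markers of each list, of which 1 is not reported here. Tried instead were other blocks, background corrections, scalings, filters, probe rules, Agilent's ratio, the deposited table and each pair left out.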

Additional observations from a re-analysis of the deposited data

Results flagged for a closer look

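Among 60 groups of 4 arrays, 1 for each tested gene and group, 6 held an array whose gap to its nearest neighbour exceeded Dixon's critical share of the group's range. Chance gives about 1 in 20. On GFP-labelled replicate 4, Nrp2 read 0.04 (others 0.59 to 0.67), Plxnb1 1.03 (others 1.44 to 1.48) and Plxnb2 -2.07 (others -1.67 to -1.65), all lower than the rest of the group. On Nr4a1-labelled arrays, Sema3c read -0.38 on replicate 3 (others -0.11 to -0.09), Sema5b 3.12 on replicate 1 (others 3.02 to 3.03) and Plxnb3 0.19 on replicate 2 (others -0.56 to -0.48). Nr4a1-labelled replicate 2 is also the array with 37 spots of non-uniform background, and GFP-labelled replicate 4 is from batch 2 of the labels.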

How the results depend on the processing

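Over 507 recomputed values of single members, 411 kept their direction and side of the threshold, 66 lost a call, 6 gained one and 24 changed sign. With slide as a random block (consensus correlation 0.863), limma called 0 members (3 at an unadjusted p under 0.05), 0 partners (4 unadjusted) and 8 features higher and 4 lower; Plxna4 turned to 0.03 and Plxna1 to 0.02. With all spots kept, 0 members were higher and 1, Plxna3, lower (2 and 10 at an unadjusted p under 0.05), 0 partners passed (21 unadjusted), 128 features were higher and 97 lower, and the medians of members and receptors were -0.12 and -0.14; Sema5b turned to -0.16, Plxnb1 to -0.14, Sema4b to -0.08, Sema3b to 0.15 and Sema3a to 0.22. Agilent's own ratio gave 2 higher and 7 lower members, 1512 and 1350 features and 3 and 10 partners. Median centring gave 3464 higher and 1262 lower features, so 73.3% of calls were higher in place of 52.8%, 11 and 8 partners, a median of 0.06 over all features, and Plxna4 0.06, Plxna1 0.04, Sema3b 0.04 and Sema3g 0.01. Scaling between arrays gave 1 and 7 members, 1132 and 1185 features, 3 and 8 partners and a receptor median of -0.16, with Sema3b at 0.15 and Sema3a at 0.07. Cy5 alone turned Plxna1 to 0.06, Sema3a to 0.01 and Sema3g to 0.02. Sema6d was -0.22 in the deposited table, the value that its dimmer probe had in the reported processing, and -0.07 as a mean of probes.

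Without the replicate block, members were 3 higher and 9 lower, features 2353 and 2124, and partners 6 and 13, losing Plxnd1 (limma adjusted p = 0.218), Sema6c (0.0510) and Sema6a (0.0633). Leaving out each pair gave 2 to 5 higher and 7 to 9 lower members, 1767 to 2581 and 1624 to 1975 features, 3 to 7 and 10 to 14 partners, and medians of -0.09 to -0.02 for members, -0.05 to -0.03 for ligands and -0.11 to 0.01 for receptors. Signs turned for Plxna4 (0.01), Plxna1 (0.03) and Sema4b (-0.05, with 0.10 as its highest value) without replicate 1, Plxna1 (0.03) without replicate 2, and Plxna4 (0.01) and Sema3b (0.03) without replicate 3. The causes were not tested. Signal over background kept Sema3d from being tested and leaves Plxnb3 and Sema3g on dim probes.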
